A study of Mus musculus with 2 samples.

Results

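TCF12 binding was described at 10 genes known from B-1 cells, namely Arid3a, Bhlhe40, Bhlhe41, Zbtb32, Il10, Cd5, Ctla4, Pdcd1lg2, Ptpn22 and Spn. They are 10 of the 21317 protein-coding genes whose strand was known, and they were listed by name, with no signal value in the rule. The list was, however, chosen with earlier results of these data known. The data are ChIP-seq, in which DNA bound by TCF12 is pulled down with an antibody and sequenced, from CH12.LX, an immortal B-cell lymphoma line of the mouse strain B10.H-2aH-4bp/Wts. The series holds 2 biological replicates of this 1 line in 1 group, with no treated, mutant or untreated counterpart, so no difference between conditions could be tested. For each gene, a window was taken from 10 kb upstream of its 5' end to its 3' end on the mm10 build, and every peak of the authors' optimal list with its summit inside was counted. The optimal list was thresholded by the authors on the irreproducible discovery rate (IDR), a measure of how well peak ranks repeat. Of its peaks, 35836 lay on chromosomes 1 to 19 and X. The windows of the 10 genes held 68 of them. Expression was not measured, so the B-1 label of these genes could not be checked against the line's own RNA. Read depth is unknown, and the intervals on shares express counting error alone and take neighbouring peaks as independent.

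TCF12, also known as HEB, is a basic helix-loop-helix protein of the E protein family. E proteins bind DNA as dimers at E-boxes, motifs of the form CANNTG, and in B cells they are known for early lineage commitment and for the expression of B-cell genes. B-1 cells are innate-like B lymphocytes of the body cavities that arise largely from fetal precursors, renew themselves and secrete natural antibody and interleukin 10. Many of them carry CD5, and CH12 is known from earlier work as a CD5-positive, B-1 like lymphoma. The 10 genes fall into transcription factors (Arid3a, Bhlhe40, Bhlhe41, Zbtb32), a cytokine (Il10), surface receptors and a ligand (Cd5, Ctla4, Spn, Pdcd1lg2) and a phosphatase of antigen receptor signalling (Ptpn22).

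Sequence around the strongest peak of each gene is shown because the E-box is the motif that E proteins bind. It was read from the authors' mm9 peak list on the mm9 genome, since an mm10 genome was not used here. Each run is 101 bases of the plus strand centred on the summit, in lower case, with every CANNTG in capitals. The windows are chr10:79403633-79403733 for Arid3a, chr1:132907234-132907334 for Il10, chr6:108608677-108608777 for Bhlhe40 and chr1:60970337-60970437 for Ctla4. For the other genes they are chr19:10815328-10815428 for Cd5, chr3:103676628-103676728 for Ptpn22, chr7:31379239-31379339 for Zbtb32 and chr19:29505603-29505703 for Pdcd1lg2. The window of Bhlhe41 lies within an untranslated region and is not shown, and Spn had no mm9 peak.
Arid3a: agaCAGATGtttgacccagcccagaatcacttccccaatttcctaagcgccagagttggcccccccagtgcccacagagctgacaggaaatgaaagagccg
Il10: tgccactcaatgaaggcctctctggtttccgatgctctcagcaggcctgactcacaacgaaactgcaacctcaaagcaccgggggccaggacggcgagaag
Bhlhe40: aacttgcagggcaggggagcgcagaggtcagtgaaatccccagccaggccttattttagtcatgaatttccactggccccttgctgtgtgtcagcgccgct
Ctla4: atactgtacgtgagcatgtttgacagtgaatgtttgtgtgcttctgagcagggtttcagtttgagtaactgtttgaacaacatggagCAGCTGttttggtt
Cd5: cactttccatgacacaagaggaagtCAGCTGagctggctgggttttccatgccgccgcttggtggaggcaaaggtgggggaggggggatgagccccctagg
Ptpn22: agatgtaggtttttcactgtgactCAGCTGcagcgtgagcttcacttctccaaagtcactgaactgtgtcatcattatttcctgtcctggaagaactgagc
Zbtb32: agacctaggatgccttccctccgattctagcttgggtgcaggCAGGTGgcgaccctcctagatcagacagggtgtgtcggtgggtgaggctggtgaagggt
Pdcd1lg2: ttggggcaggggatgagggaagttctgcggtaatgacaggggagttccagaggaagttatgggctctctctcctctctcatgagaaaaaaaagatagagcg

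Cd5, Ctla4 and Ptpn22 held the E-box CAGCTG in these windows, and Zbtb32 held CAGGTG, which reads CACCTG on the other strand. At Bhlhe41 the window held CACCTG on one of its strands. Arid3a held CAGATG as its only CANNTG, although its peak was the strongest of the 10 genes. Il10, Bhlhe40 and Pdcd1lg2 held no CANNTG of any kind within 50 bp of the summit. CAGCTG or CACCTG was therefore present at the strongest mm9 peak of 5 of the 9 genes that had one, against 23.7% of the 10847 genes with an mm9 peak. That share was not matched for the place of the peak or the number of peaks per gene. Over all 42 mm9 peaks of these genes it was 35.7%, against 31.0% of all mm9 peaks. The nearest such E-box was centred 5.5 bp from the summit at Zbtb32, 22.5 at Cd5, 23.5 at Ptpn22, 27.5 at Bhlhe41 and 39.5 at Ctla4. The ETS core GGAAGT, read on either strand, was present at Arid3a and Cd5, and it occurred at 2 places in the Pdcd1lg2 window.

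Promoter sequence is shown for the 3 genes that had an optimal summit inside the 250 bases before a RefSeq transcription start. RefSeq promoters on GRCm38.p6 were matched for 7 of the 10 genes, in 9 rows, and none was matched for Arid3a, Bhlhe40 and Il10. The runs are chr6:145865421-145865670 on the minus strand for Bhlhe41, chr19:10738975-10739224 on the minus strand for Cd5 and chr1:60908775-60909024 on the plus strand for Ctla4. Each is written along the gene's own strand up to the base before the start, with every CANNTG in capitals.
Bhlhe41: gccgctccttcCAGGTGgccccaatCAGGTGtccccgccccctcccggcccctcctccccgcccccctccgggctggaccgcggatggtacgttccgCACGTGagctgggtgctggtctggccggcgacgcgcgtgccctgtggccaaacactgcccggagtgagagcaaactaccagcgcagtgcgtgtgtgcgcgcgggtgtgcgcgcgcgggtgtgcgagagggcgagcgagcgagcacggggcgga
Cd5: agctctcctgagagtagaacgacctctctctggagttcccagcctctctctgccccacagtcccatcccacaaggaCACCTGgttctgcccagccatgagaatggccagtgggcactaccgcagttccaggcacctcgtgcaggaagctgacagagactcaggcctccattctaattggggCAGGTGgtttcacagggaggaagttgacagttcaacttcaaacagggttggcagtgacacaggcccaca
Ctla4: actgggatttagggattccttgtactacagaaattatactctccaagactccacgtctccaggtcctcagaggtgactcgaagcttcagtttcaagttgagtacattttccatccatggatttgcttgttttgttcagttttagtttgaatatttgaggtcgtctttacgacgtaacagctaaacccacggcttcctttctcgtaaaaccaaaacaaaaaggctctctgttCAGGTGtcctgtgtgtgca

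In the Bhlhe41 promoter the summit lay 110 bases before the start, and the 250 bases held CAGGTG at 2 places and CACGTG at 1. In the Cd5 promoter the summit lay 69 bases before the start, and the run held 1 CACCTG and 1 CAGGTG. In the Ctla4 promoter the summit lay 165 bases before the start, and the only CANNTG was a CAGGTG that begins 19 bases before it. Of all 32851 RefSeq promoters of this length, 27.7% held CAGCTG or CACCTG on either strand, 6.02% held CACGTG and 66.2% held a CANNTG of any kind. The promoters printed here were chosen for holding a summit, and these shares were not taken over promoters with a summit. A match describes letters and does not show that TCF12 occupies that E-box.

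TCF12 peaks were present at 9 of the 10 B-1 cell associated genes, against 57.2% of all genes and 63.6% of the 12590 genes with windows in the same range of lengths, 15.1 to 72 kb. Spn was the gene without one. At 8 of the 10 genes there were 6 or more peaks, against 4.96% of all genes and 3.70% of the genes in that range of lengths. That count depended on neighbouring calls and weak peaks. With overlapping peaks merged, 4 of the 10 genes (Arid3a, Ptpn22, Il10 and Bhlhe40) had 6 or more places, against 3.75% of all genes and 2.46% of those in the range of lengths. With the IDR score held at 830 or more, 5 of the 10 had 6 or more peaks, against 2.34% and 1.54%. The number 6 and the range of lengths were chosen after the values were seen. The 10 genes were themselves chosen with earlier results of these data known, so their contrasts with all genes are descriptions and not independent evidence. The median gene of the 10 had 7 peaks, against a median of 1 over all genes, in windows of similar median length, 27 kb against 27.4 kb. The strongest peak had a median signal of 135 over the 9 genes with a peak, against 58.7 over all genes with a peak. That contrast was not matched for the number of peaks per gene, from which the strongest is taken. Peak by peak, the median signal was 35.2 at these genes against 35.0 over all optimal peaks. Signal is the authors' caller's own value per peak, with no stated scaling, and is used here to rank and describe peaks within a list.

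**Figure D1:**
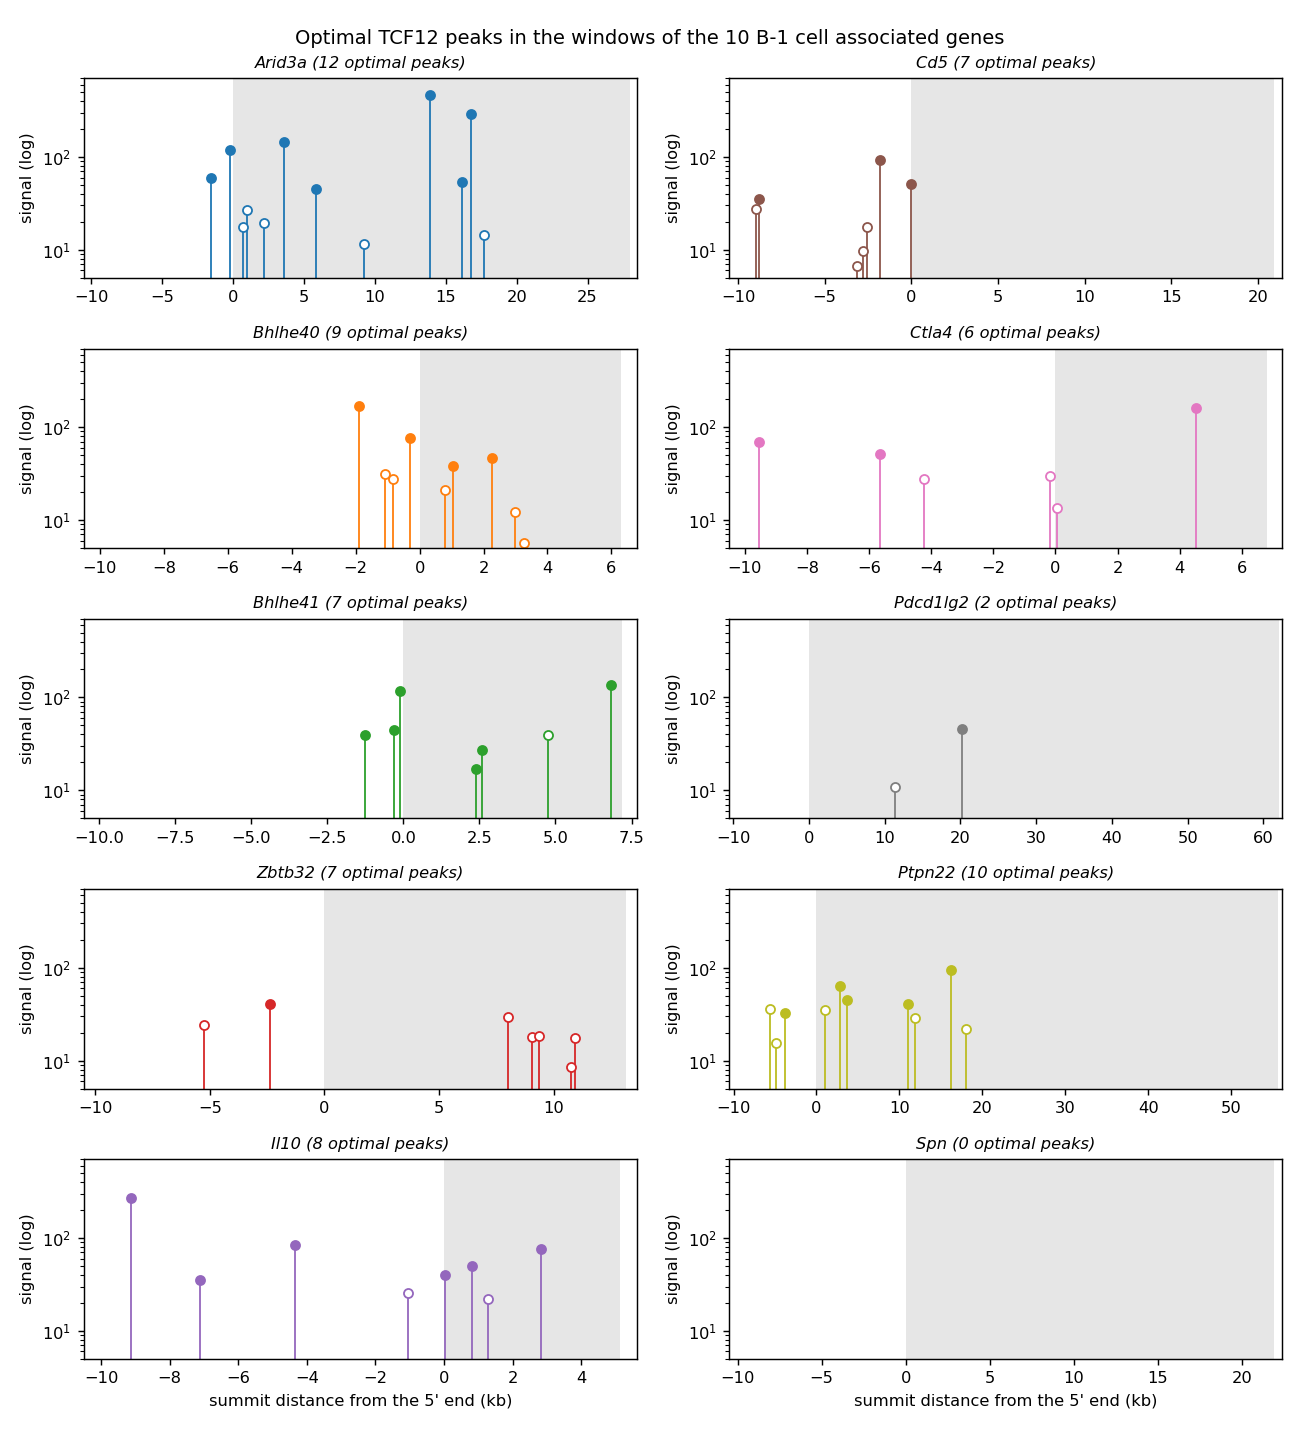
Optimal TCF12 peaks of each gene. The horizontal axis is the distance of the summit from the 5' end in kb along the gene's strand, grey marks the gene body, the vertical log axis is the authors' pooled signal, and filled points have the highest IDR score, 1000. Arid3a and Il10 hold the tallest peaks, at 464 and 269, the 7 peaks of Cd5 all lie upstream, and Spn has none.

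Among the transcription factors, Arid3a had the strongest binding and the most peaks. Arid3a encodes an AT-rich interaction domain protein that acts downstream of Lin28b in fetal B-cell development in mice. Its gene lies on chromosome 10 from 79927043 to 79955018 on the plus strand, and its window held 12 optimal peaks, 10 of them in the gene body. The main peak of Arid3a, from 79940681 to 79941171, had a signal of 264 in replicate 1 and 199 in replicate 2, and of 464 in the pooled data. It ranked 4 of all 35836 optimal peaks, 3 in the relaxed list of replicate 1 and 6 in that of replicate 2, so both replicates placed it near the top. It lay 13895 bp past the 5' end of Arid3a, at the same distance as an intronic mm9 peak with a signal of 1582 that ranked 3 of 23572.

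A second strong peak of Arid3a lay 16784 bp past the 5' end, with a signal of 167 in replicate 1 and 131 in replicate 2, and its pooled signal of 293 ranked 80 of the optimal peaks. The 5' end nearest to it, 16325 bp away, was that of Wdr18, a WD-repeat gene beyond the 3' end of Arid3a. The peak 3567 bp past the 5' end had 76.4 in replicate 1, 65.1 in replicate 2 and 144 in the pooled data. The peak 194 bp upstream, at the promoter, had 64.5 in replicate 1, 60.0 in replicate 2 and 119 in the pooled data. The order of these 4 peaks was the same in both replicates. The other 8 peaks of Arid3a had pooled signals from 11.5 to 59.4. The 2 upstream peaks also fell in the window of R3hdm4, so their assignment to Arid3a is not unique.

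Bhlhe40 and Bhlhe41 encode basic helix-loop-helix repressors that bind CACGTG, and mice lacking both have few B-1a cells. Bhlhe40 lies on chromosome 6 from 108660629 to 108666925 on the plus strand and had 9 optimal peaks, which joined into 6 places once overlapping peaks were merged. Its strongest peak, from 108658631 to 108658743, lay 1896 bp upstream and had a signal of 118 in replicate 1, 57.1 in replicate 2 and 169 in the pooled data. The peak 312 bp upstream of Bhlhe40 had 50.8 in replicate 1, 35.1 in replicate 2 and 75.9 in the pooled data. Replicate 1 was the higher at both, by a ratio of 2.07 at the strongest peak and 1.45 at the promoter peak. On mm9 the strongest peak fell in an exon of the annotated gene Gm17055, while the promoter peak, 256 bp upstream with a signal of 107, held CACGTG. The remaining 7 peaks of Bhlhe40 reached from 5.60 to 46.1.

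Bhlhe41 lies on chromosome 6 from 145858243 to 145865420 on the minus strand and had 7 optimal peaks, of which 6 had the highest IDR score. Its strongest peak, from 145858417 to 145858800, lay 6811 bp past the 5' end and near the 3' end of the gene, with a signal of 75.9 in replicate 1, 59.1 in replicate 2 and 135 in the pooled data. The promoter peak of Bhlhe41, 110 bp upstream and within the run printed above, had 69.6 in replicate 1, 45.6 in replicate 2 and 116 in the pooled data. Both replicates put the peak near the 3' end first. A peak 4771 bp past the 5' end went the other way between replicates, with 10.9 in replicate 1 and 30.8 in replicate 2. The remaining peaks of Bhlhe41 had pooled signals from 16.8 to 45.1.

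Zbtb32 encodes a BTB zinc-finger repressor that limits memory B-cell responses in mice, and it was the transcription factor with the weakest binding. It lies on chromosome 7 from 30589680 to 30602819 on the minus strand, and its 7 peaks had pooled signals from 8.62 to 40.6. The strongest, from 30604993 to 30605376, lay 2366 bp upstream of the 5' end and had a signal of 32.5 in replicate 1, 15.4 in replicate 2 and 40.6 in the pooled data. In replicate 2 the strongest relaxed peak of the Zbtb32 window was another one, 8505 bp past the 5' end, with a signal of 22.8. At that place the conservative list held a peak from 30594074 to 30594457 with a pooled signal of 39.6 that the optimal list did not hold. All 7 optimal peaks also fell in a neighbour's window, 2 in that of Upk1a, a uroplakin gene, and 5 in that of Kmt2b, a histone methyltransferase gene. Both RefSeq starts of Zbtb32 lie within the gene span, and 3 of the 7 summits lay within 1 kb of 1 of them, 529 and 824 bp before it and 865 bp past it, while none lay that close to the other.

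Il10, the gene of interleukin 10, an anti-inflammatory cytokine that B-1 cells secrete, had the strongest binding after Arid3a. It lies on chromosome 1 from 131019845 to 131024970 on the plus strand, and its 8 peaks were divided into 4 upstream and 4 in the gene body. The strongest, from 131010512 to 131010865, lay 9124 bp upstream and had a signal of 176 in replicate 1, 98.0 in replicate 2 and 269 in the pooled data. It ranked 75 in the relaxed list of replicate 1, 239 in that of replicate 2 and 120 among the optimal peaks. The peak 4353 bp upstream had 60.0 in replicate 1, 23.5 in replicate 2 and 84.4 in the pooled data. By contrast, the peak 2842 bp past the 5' end was lower in replicate 1, at 34.5, than in replicate 2, at 46.5, with 75.7 in the pooled data. At the 5' end itself the signal was modest, 40.0 at a summit 33 bp into the gene. All 8 peaks of Il10 overlapped a peak of the conservative list.

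Cd5 encodes a scavenger receptor family glycoprotein that marks B-1a cells and T cells and dampens antigen receptor signalling. It lies on chromosome 19 from 10718107 to 10739026 on the minus strand, and its 7 peaks, 4 places after merging, were all upstream, with 0 in the 20.9 kb of the gene body. The strongest, from 10740792 to 10740894, lay 1832 bp upstream and had a signal of 62.2 in replicate 1, 30.2 in replicate 2 and 91.5 in the pooled data. The peak 17 bp upstream of the 5' end, within the printed promoter, had 43.2 in replicate 1, 10.2 in replicate 2 and 50.8 in the pooled data. The replicates differed by a ratio of 2.06 at the first and 4.25 at the second, against a median of 1.66 over all optimal peaks, so the promoter peak of Cd5 was relatively weak in replicate 2. Of the 7 peaks, 4 overlapped a conservative peak, and the 3 that did not lay from 2576 to 3117 bp upstream with signals from 6.77 to 17.8.

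Ctla4, an inhibitory receptor for the costimulatory ligands CD80 and CD86, lies on chromosome 1 from 60909025 to 60915832 on the plus strand and had 6 peaks. Its strongest, from 60913345 to 60913728, lay 4512 bp past the 5' end and had a signal of 94.4 in replicate 1, 68.2 in replicate 2 and 162 in the pooled data. The peak 9540 bp upstream of Ctla4 had 49.4 in replicate 1, 21.8 in replicate 2 and 68.9 in the pooled data. The promoter peak, 165 bp upstream, was weaker, with 19.3 in replicate 1, 18.9 in replicate 2 and 29.7 in the pooled data. The 2 replicate values at the Ctla4 promoter came from relaxed peaks with different summits, 60909036 in replicate 1 and 60908859 in replicate 2. The optimal peak 35 bp past the 5' end matched the same relaxed peaks. These values therefore do not compare the replicates at 1 summit. Replicate 1 was the higher at the other peaks named.

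Pdcd1lg2 encodes PD-L2, a ligand of the inhibitory receptor PD-1 that marks a subset of B-1a cells in mice, and it was sparsely bound. It lies on chromosome 19 from 29410919 to 29472927 on the plus strand, and the longest window of the 10 genes, 72 kb, held only 2 optimal peaks. The stronger, from 29430998 to 29431381, lay 20271 bp past the 5' end and had a signal of 26.1 in replicate 1, 18.1 in replicate 2 and 45.3 in the pooled data. The weaker, 11334 bp past the 5' end, had a pooled signal of 10.8 and no relaxed peak in replicate 2. More peaks than the 2 of Pdcd1lg2 were counted at 19.4% of all genes.

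Spn encodes CD43, a sialomucin on B-1 cells, T cells and plasma cells, and was the gene with no optimal peak. It lies on chromosome 7 from 127123637 to 127145552 on the minus strand. The relaxed lists held 13 peaks in its window in replicate 1 and 8 in replicate 2. The strongest of them lay at about the same place in both, 8138 bp upstream in replicate 1 with a signal of 12.9 and 8109 bp upstream in replicate 2 with a signal of 10.8. They ranked 35670 and 24006 in their lists. The pooled relaxed list had a signal of 24.5 there, from 127153503 to 127153886, and the conservative list kept that peak with an IDR score of 771. Its pooled signal was exceeded by 70.9% of the optimal peaks, so Spn was not without signal but had only a weak peak, which 1 of the 2 thresholded lists kept. A RefSeq start of Spn lies 15.9 kb from that peak, and the relaxed signal at that start was 6.66 in replicate 1 and 5.36 in replicate 2.

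Ptpn22 encodes a tyrosine phosphatase that tunes antigen receptor signalling. It lies on chromosome 3 from 103856575 to 103912252 on the plus strand and had 10 peaks, the second highest number after Arid3a. The strongest, from 103872566 to 103872949, lay 16183 bp past the 5' end and had a signal of 56.3 in replicate 1, 40.3 in replicate 2 and 94.97 in the pooled data. Peaks 2879 and 3708 bp past the outer 5' end had pooled signals of 63.2 and 45.0. They lay close to RefSeq starts inside the gene, 341 bp before one and 6 bp past another. The other peaks of Ptpn22 had pooled signals from 15.4 to 40.4, and the 3 upstream ones also fell in the window of Bcl2l15, a gene of the Bcl-2 family.

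Set side by side, the 9 genes with an optimal peak had strongest signals from 40.6 at Zbtb32 to 464 at Arid3a. Of all genes with a peak, 0.0328% had a stronger one than Arid3a and 0.648% a stronger one than Il10. For Bhlhe40, Ctla4 and Bhlhe41 these shares were 4.58%, 5.47% and 9.08%. For Ptpn22 and Cd5 they were 22.5% and 24.4%, and for Pdcd1lg2 and Zbtb32 they were 65.8% and 72.2%, so both of these lay in the weaker part of the genes with a peak. The number of peaks followed another order. Per 10 kb of window, Bhlhe40 had 5.52 and Il10 5.29, Bhlhe41 had 4.07, Ctla4 3.57, Arid3a 3.16 and Zbtb32 3.03, and Cd5, Ptpn22 and Pdcd1lg2 followed with 2.26, 1.52 and 0.278.

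**Figure D2:**
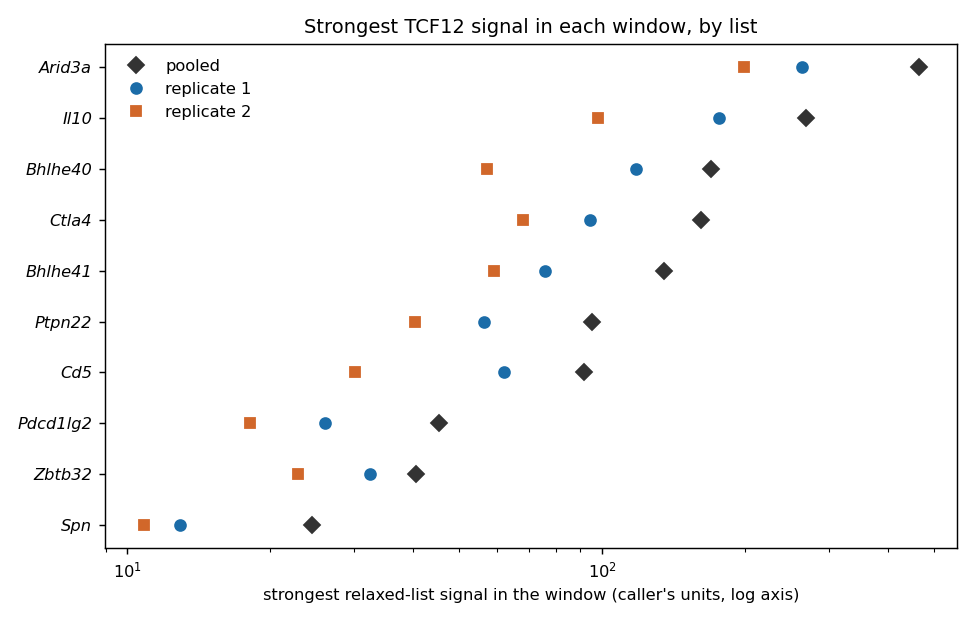
Strongest relaxed-list TCF12 signal in each gene's window, on a log axis in the caller's units, in the pooled list (diamonds), replicate 1 (circles) and replicate 2 (squares). Arid3a lies highest in all 3 lists, at 464, 264 and 199, and Spn lowest, at 24.5, 12.9 and 10.8.

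The order of the genes by their strongest relaxed peak was nearly the same in the replicates. In replicate 1 it ran Arid3a, Il10, Bhlhe40, Ctla4, Bhlhe41, Cd5, Ptpn22, Zbtb32, Pdcd1lg2, Spn. In replicate 2, Bhlhe40 came after Ctla4 and Bhlhe41, and Ptpn22 came before Cd5, while 5 genes kept their place. Bhlhe40, Ctla4 and Bhlhe41, with 57.1, 68.2 and 59.1 in replicate 2 against 118, 94.4 and 75.9 in replicate 1, were thus ordered alike for Ctla4 above Bhlhe41, while the place of Bhlhe40 among them cannot be given from these replicates, and neither can the order of Ptpn22 and Cd5. Arid3a and Il10 stood above the others in both, and Zbtb32, Pdcd1lg2 and Spn below them. With 2 replicates no test of the order was made.

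Replicate 1 gave the higher signal at 51 of the 62 peaks of these genes found in both replicates, 82.3% (95% Wilson interval 71.0 to 89.8), against 85.7% of all optimal peaks. The median ratio of replicate 1 to replicate 2 was 1.45 (interquartile range 1.06 to 2.06), against 1.66 (1.21 to 2.34) over all optimal peaks. At the 9 strongest peaks, 1 per gene, the ratio lay between 1.28 and 2.11. The widest ratios were 0.355, at the Bhlhe41 peak described above, and 4.91, at an Arid3a peak 989 bp past the 5' end with 21.0 in replicate 1 and 4.27 in replicate 2. Neighbouring optimal peaks can share 1 relaxed peak of a replicate, so these ratios are not independent.

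**Figure D3:**
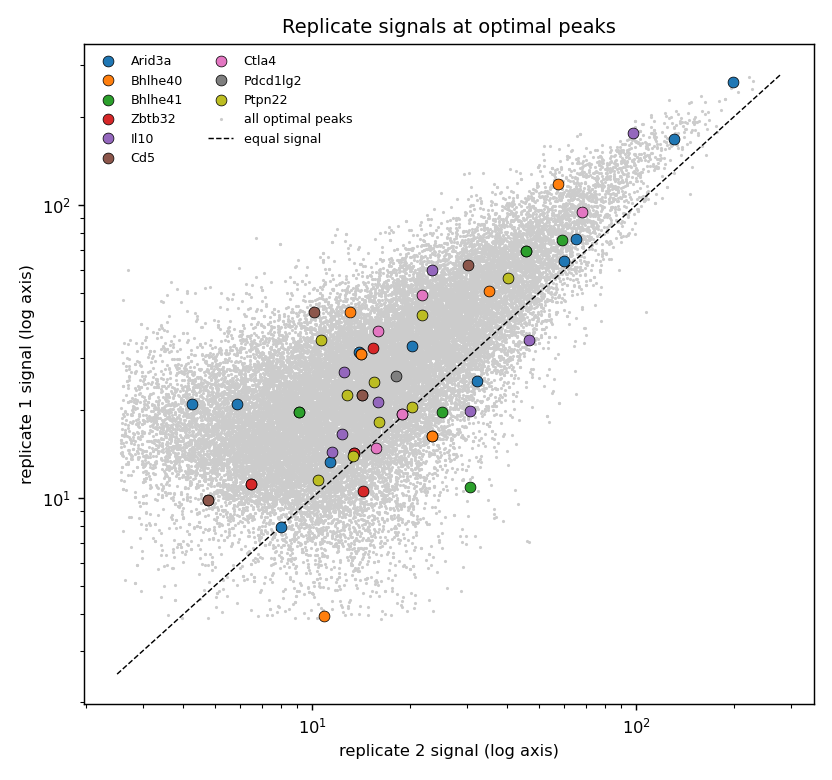
Signal in replicate 1 (vertical) against replicate 2 (horizontal), both on log axes in the caller's units, at optimal peaks found in both replicates. Coloured points are the 62 peaks of the B-1 cell associated genes and grey points are all 34805 such peaks, most of which lie above the dashed line of equal signal.

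Of the 68 peaks of these genes, 62 were overlapped by a relaxed peak in both replicates, 91.2% (82.1 to 95.9), against 97.1% of all optimal peaks, a share above that interval. Replicate 2 lacked a relaxed peak at 5 of them, in Arid3a, Bhlhe40, Zbtb32, Cd5 and Pdcd1lg2, and replicate 1 at 1, in Ptpn22. Those 6 peaks were weak, with pooled signals from 5.60 to 29.5. A conservative peak overlapped 55 of the 68, 80.9% (69.99 to 88.5), against 83.6% of all optimal peaks, and the other 13 had a median signal of 14.6, against 35.0 over all optimal peaks. The strongest peak of each of the 9 genes was found in both replicates and overlapped a conservative peak.

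Peak by peak, the signal at these genes was close to that of all optimal peaks. The median signal of their 68 peaks was 35.2, against 35.0 over all optimal peaks, and 36 of them had the highest IDR score, 52.9% (41.2 to 64.3) against 53.9%. The strongest 10% of all optimal peaks included 9 of them, 13.2% (7.12 to 23.3). Of the 68, 23 overlapped another peak of these genes, 33.8% (23.7 to 45.7), against 22.0% of all optimal peaks that overlapped another, a share below that interval, although overlapping peaks are not independent. Part of the number of peaks is thus neighbouring calls, and after merging the 68 peaks formed 56 places.

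The peaks lay mostly away from the outer 5' ends. In all, 29 were upstream and 39 in the gene body, and 13 of the 68, 19.1% (11.5 to 30.01), lay within 1 kb of the 5' end of any gene, against 29.3% of all optimal peaks, a share inside that interval. None of the 9 strongest peaks lay within 1 kb of its gene's outer 5' end, as 5 were in the gene body and 4 further upstream, whereas 55.2% of all genes with a peak had their strongest there. That share was not matched for peaks per gene, a median of 7 at the 10 genes against 1 over all genes. Weaker peaks did lie within 1 kb of the outer 5' end at 6 of the 10 genes, against 40.6% of all genes. With RefSeq starts counted too, they did so at 8, against 43.9%. For 60 of the 68 peaks the nearest 5' end was that of the B-1 cell associated gene, and 12 also fell in the window of another gene.

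Some peaks lay near the limits of the windows or beyond them. Just inside the upstream limit were peaks of Ctla4 at 9540 bp with a signal of 68.9, of Il10 at 9124 bp with 269 and of Cd5 at 8991 bp with 27.3. The closest outside the upstream limit were peaks at 10127 bp for Arid3a with 86.4, at 15386 bp for Bhlhe41 with 184 and at 16414 bp for Il10 with 66.0. Beyond the 3' ends the nearest were 512 bp past Ctla4 with 26.9, 811 bp past Zbtb32, nearest to Kmt2b, with 56.5, and 1096 bp past Il10 with 15.5. The peak outside the window of Bhlhe41 was stronger than any inside it, and so were a peak 21680 bp past the 3' end of Bhlhe40, with 174, and a peak 23347 bp upstream of Zbtb32, with 55.4, besides the one past its 3' end. For Spn, with no peak inside, the nearest outside were 20408 bp upstream with 54.7 and 6866 bp past the 3' end, nearest to Qprt, with 85.6.

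On mm9 the authors' list held 42 peaks at the 9 genes, 16 upstream, 21 in introns and 5 in exons of the gene itself. These places follow the GENCODE annotation, whose 5' ends can differ from those on mm10. At Ctla4, peaks 12499 and 21908 bp past the mm9 5' end were counted as intronic. They lay 9526 and 117 bp from the nearest transcript start of Ctla4, so the intronic count depends on the 5' end used. Of the 16 upstream, 2 lay in exons of other genes, Gm17055 for Bhlhe40 and Upk1a for Zbtb32. At Zbtb32 the strongest mm9 peak, with a signal of 52.6, lay 4639 bp past the 5' end, whereas on mm10 the strongest was upstream. A whole CAGCTG or CACCTG, on any of the strands, was found no more than 50 bp from the summit at 15 of the 42, 35.7% (23.0 to 50.8), against 31.0% of all 23572 mm9 peaks. CACCTG was found at 26.2% against 19.1%, CAGCTG at 14.3% against 15.5%, and any CANNTG, which includes all of these, at 59.5% against 52.1%. Every one of the shares over all mm9 peaks lay inside the interval of the 42. CACGTG, the site of Bhlhe40 and Bhlhe41 proteins, was held by 2 of the 42 peaks, 4.76% against 3.56%, and these were the promoter peaks of Bhlhe40 and Bhlhe41 themselves. In all, 8 of the 9 genes had an mm9 peak with CAGCTG or CACCTG, against 35.7% of all genes with an mm9 peak. The share was 54.0% of the 4728 genes with 2 to 7 mm9 peaks, the range of the 9 genes. That range does not match the number of peaks gene by gene, and a gene with more peaks has more places for a motif. The contrast is therefore not read as a trait of these genes. Il10, whose 2 mm9 peaks held none, was the exception among the 9. Both lay upstream, and the mm10 optimal list had 8 peaks at Il10. Those without an mm9 counterpart, such as the peak 4353 bp upstream with a signal of 84.4, were not read for motifs.

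**Figure D4:**
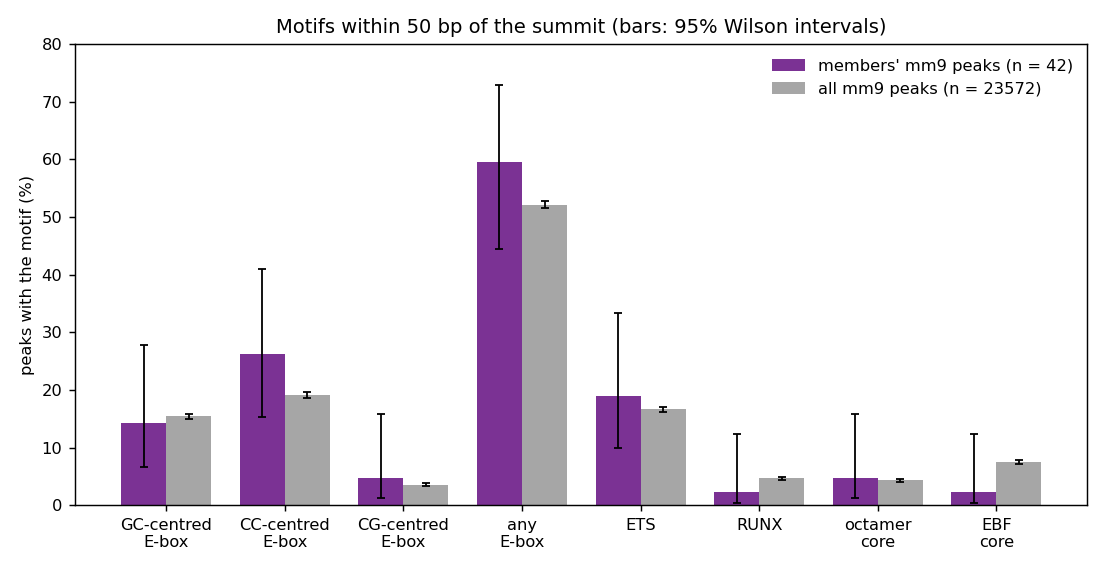
Share of mm9 peaks with a motif wholly within 50 bp of the summit, in percent, for the 42 peaks of the B-1 cell associated genes (purple) and all 23572 mm9 peaks (grey), with 95% Wilson intervals. The E-boxes named by their central bases are CAGCTG for GC-centred, CACCTG for CC-centred and CACGTG for CG-centred, and the intervals of the 42 peaks include every share of all peaks.

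For motifs of other B-cell factors the counts were small. GGAAGT, a core of ETS factor sites, was held by 8 of the 42 peaks, 19.05% against 16.6% of all mm9 peaks. TTTGCAT, part of the octamer bound by OCT factors, was held by 2, 4.76% against 4.37%. AACCACA, a RUNX site, and CCCNNGGG, the core of the EBF site, were each held by 1, 2.38%, against 4.72% and 7.48%. At 42 peaks a difference of this size was not detectable.

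Peaks were also present at most genes of the other lists examined. Of 15 further genes known from B-1 cells, 14 had a peak (93.3%), with a median of 4 peaks per gene and a median strongest signal of 93.8. Those with the strongest signals were Nfatc1 with 241 and 28 peaks, Nfkbid with 174, Tnfrsf13b with 169, Fcrl5 with 142 and Cd9 with 108, and Hmga2 had none. Of 11 genes known from follicular and marginal zone B cells, 9 had a peak (81.8%), with a median of 2 peaks and a median strongest signal of 43.4. Dtx1 and Cxcr5 led these with 186 each, ahead of Notch2 with 133 and Ccr7 with 104, while Fcer2a and Klf2 had none. Of 5 T-cell genes, 4 had a peak (80%), with a median of 2 peaks and a median strongest signal of 36.5, and they were Lck with 208, Cd3e with 37.8, Cd3g with 35.1 and Cd4 with 17.0, while Cd8a had none. The 10 genes had a higher median number of peaks, 7, than any of these lists, but the lists were small and no test was made of the difference. Overlapping peaks were counted separately in these medians, and merged counts were not made for the lists. The genes and the lists were also chosen with earlier results of these data known.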

How the data were processed

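TCF12 ChIP-seq peak lists of 2 biological replicates, which form 1 group, were analysed. Per the file descriptions, the authors called relaxed peaks with background on each replicate and on the pooled alignments, each with a control alignment, and derived the optimal and conservative lists by IDR on mm10, and a separate list on mm9. The deposited signal per peak is the caller's own value, and the score of the 2 IDR lists is the deposited scaled IDR score. Which aligner and peak caller were used is not given in the sources used here.

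Of 21631 protein-coding genes of a RefSeq table on GRCm38.p6, 21317 (98.5%) received a strand, 17274 from RefSeq promoters and 4043 from GENCODE vM1, and the strand of 3 of the 10 genes, Arid3a, Bhlhe40 and Il10, came from GENCODE. The 5' end is the outer end of the gene's span. Peaks matched at an overlap of at least 1 bp, taking the strongest overlapping relaxed peak of a replicate. Windows on mm9 used GENCODE vM1 gene ends. Motifs were searched on both strands of the mm9 genome (NCBIM37) within 50 bp of the summit. No coordinate was converted between builds. Intervals are Wilson intervals at the 95% level. The steps were tested on simulated data and run with Python 3.11.15, pandas 2.3.3, NumPy 2.4.6 and SciPy 1.17.1. The strongest peak of each of the 9 genes with one is given in full, and of other lists up to 5 genes with the strongest signal and up to 4 without a peak. The members and lists were chosen with earlier results of these data known. No test was made, since there is 1 group and the genes are a chosen list.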

Additional observations from a re-analysis of the deposited data

How the results depend on the processing

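Read depth is unknown, signals have no stated scaling between replicates, and weak peaks depend on the list used. The number of genes with a peak was 9 with the optimal list and lay between 8 (gene body only) and 10 under all alternatives tried, and Spn gained a peak in the conservative list, by nearest 5' end and in each replicate alone. The number of peaks, 68, was 39 in gene bodies only and 121 by nearest 5' end. With 1 replicate left out, the strongest 35836 relaxed peaks of the other were taken, with no IDR step. The number of peaks then ranged from 62 to 72, and the number of genes with a peak was 10 both times. The tenth gene, Spn, depended on that cutoff, as its strongest peak ranked 35670 in replicate 1 and 24006 in replicate 2. The number of genes with 6 or more peaks, 8, a count and alternatives added after the data were seen, was 7 in the conservative list and by nearest 5' end, 6 within 5 kb upstream, 5 at an IDR score of at least 830, 4 after merging and 2 in gene bodies only, and with 1 replicate left out it ranged from 5 to 6. Of the other alternatives added then, merging overlapping peaks gave 56 places, and counting every RefSeq start raised the promoter share to 26.5% (all optimal peaks 33.5%). The median strongest signal, 135, was 115 in the conservative list, where Spn enters, and 94.97 within 5 kb upstream, where the strongest Il10 peak drops out. The share found in both replicates, 91.2%, was 73.5% at a reciprocal overlap of 50%, 69.1% for summits within 100 bp and 75% among the strongest peaks of each replicate only. The ratio of replicates, 1.45, was 1.52 by nearest summit and 1.55 at an IDR score of at least 830. For the share found in both replicates and for this ratio, the alternatives were not computed over all optimal peaks. They therefore do not show whether these genes differ from other places. The promoter share, 19.1%, was 38.2% within 2500 bp (all optimal peaks 35.9%), which turns the order of both shares, and the cause was not tested. The E-box share, 35.7%, was 21.4% within 25 bp (all mm9 peaks 18.3%), 52.4% within 100 bp (43.9%) and 59.5% for any CANNTG (52.1%), so its order against all peaks held. No paired analysis was possible because there is 1 group.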

Other observations

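The windows of 8 of the 10 genes held 17 peaks of the conservative list that overlapped no optimal peak. Such peaks were not counted over all genes, so the number is not read as particular to these genes. The strongest of the 17 was the Zbtb32 peak 8553 bp past the 5' end, with a pooled signal of 39.6. It had 21.5 in replicate 1, 22.8 in replicate 2 and the highest IDR score, 1000. Ctla4 had one 6146 bp upstream with a pooled signal of 27.4, and Arid3a had one 27130 bp past its 5' end, near its 3' end, with 26.2. Both thresholded lists were derived from the files of both replicates, per the file descriptions. Since 6 of the 68 optimal peaks had no relaxed peak in a replicate, the optimal list does not require one in both. A peak held by 1 of the thresholded lists is thus not evidence of a difference between replicates.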
